A study of Mus musculus with 10 samples.

Results

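The circadian clock was followed through single-cell RNA sequencing of the mouse medial prefrontal cortex in 10 of its genes: Per1, Per2, Per3, Arntl, Cry1, Cry2, Nr1d1, Nr1d2, Dbp and Ciart. They were chosen by symbol, with earlier results of these data known, and are 10 of the 30406 genes listed for every library. The cells came from male C57BL/6N mice over 2 months old, whose place in a social hierarchy had been measured with the tube test, a contest in which 1 of a pair of mice backs out of a narrow tube. There were 5 libraries of rank 1 (dominant) and 5 of rank 4 (subordinate) mice. The labels name no treatment and no altered allele for either group. The tissue of 2 or 3 mice was pooled in each library, so the library was the replicate. All animals were killed 1 day after the last tube test and the tissue was digested with papain at warm temperature before droplet capture. The hour of collection and the light cycle are not given in the sources used here, so the levels below cannot be placed on a daily cycle. The question behind the design was whether the cortex of dominant and subordinate mice differs, and it was put here to the clock genes.

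The clock of a mammalian cell is a feedback loop of transcription. Arntl (BMAL1) pairs with CLOCK or NPAS2 and activates genes that carry E-boxes, among them the Per and Cry genes, whose proteins return to block that activation. Nr1d1 and Nr1d2 (REV-ERB alpha and beta) repress Arntl through ROR elements, Dbp is an output activator that acts on D-boxes, and Ciart (CHRONO) is a further repressor of the Arntl complex. Most cells of the brain run such a loop, and Per1 is also known as a gene that neuronal activity and glucocorticoids induce.

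The stretches of 250 bases before the transcription start are shown for 4 members because they hold the letters through which this loop is textbook-known to act. The E-box (CACGTG) is in capitals for Ciart, Cry1 and Per1, and the D-box (TTATGTAA) for Per3. Sequences are from RefSeq on GRCm38.p6, 5′ to 3′ on the strand of the gene. They lie at chr3:95882229-95882478 (minus strand, Ciart), chr10:85185055-85185304 (minus, Cry1), chr11:69098699-69098948 (plus, Per1) and chr4:151044666-151044915 (minus, Per3).
Ciart: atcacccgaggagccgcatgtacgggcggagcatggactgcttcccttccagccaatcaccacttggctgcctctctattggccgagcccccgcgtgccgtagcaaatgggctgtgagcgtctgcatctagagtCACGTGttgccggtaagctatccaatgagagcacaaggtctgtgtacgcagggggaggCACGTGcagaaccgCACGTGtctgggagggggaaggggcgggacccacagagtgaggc
Cry1: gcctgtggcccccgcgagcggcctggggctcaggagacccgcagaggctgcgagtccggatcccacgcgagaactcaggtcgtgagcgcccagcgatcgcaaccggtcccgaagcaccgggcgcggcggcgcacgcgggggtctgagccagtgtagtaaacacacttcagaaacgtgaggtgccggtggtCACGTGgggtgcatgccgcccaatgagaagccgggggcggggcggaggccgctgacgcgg
Per1: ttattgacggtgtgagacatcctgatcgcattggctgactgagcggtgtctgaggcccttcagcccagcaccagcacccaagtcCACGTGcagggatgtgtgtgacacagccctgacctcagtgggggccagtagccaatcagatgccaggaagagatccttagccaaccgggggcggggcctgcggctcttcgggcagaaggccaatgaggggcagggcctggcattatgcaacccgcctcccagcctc
Per3: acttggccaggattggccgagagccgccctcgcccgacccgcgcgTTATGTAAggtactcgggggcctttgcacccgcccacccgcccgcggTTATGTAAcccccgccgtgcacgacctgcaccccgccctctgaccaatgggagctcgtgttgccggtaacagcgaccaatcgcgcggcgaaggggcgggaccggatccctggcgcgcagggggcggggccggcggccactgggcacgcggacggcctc
Ciart held 3 E-boxes, at positions -116, -58 and -44 counted from the start base as 0. Cry1 held 1 at -60 and the listed promoter of Per1 held 1 at -166, while a further promoter of Per1 held none. Per3 held D-boxes at -205 and -158. A ROR element (TAGGTCA) began 30 bases after the start of 1 of the 2 listed Arntl promoters. In the windows of 300 bases that were searched on both strands (also for the D-box variant TTACGTAA), 7.15% of all 32851 listed promoters held an E-box, 1.06% a D-box and 2.61% a ROR element. The table had promoters for 9 of the 10 members, and no match was found in those of Cry2, Nr1d1, Nr1d2 and Dbp. These matches describe the letters of the window and were not tied to binding.

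The whole genes lie apart on GRCm38 (GENCODE M21): Per1 at chr11:69095217-69109960, Per2 at chr1:91415982-91459324, Per3 at chr4:151003652-151044665, Arntl at chr7:113207465-113314126 and Cry1 at chr10:85131700-85185064. Cry2 is at chr2:92403646-92434043, Nr1d1 at chr11:98767932-98775333, Nr1d2 at chr14:18204054-18239127, Dbp at chr7:45705088-45710203 and Ciart at chr3:95878503-95882251. The reads were counted over these genes by the authors, and no exon or isoform is resolved. Nr1d1 overlaps Thra and Arntl overlaps Gm45355, each on the other strand, and the overlaps of other members are given with their results.

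The 10 libraries held between 4442750 and 29278466 UMIs (unique molecular identifiers, each standing for an RNA molecule that was captured). The smallest barcode held 739 UMIs in rank 1 replicate 1 and 1037 in rank 4 replicate 1, against 500 or 501 in the other libraries. The part of this difference in the results was not tested. After filtering, 45951 of 64937 barcodes were kept. They were clustered without the clock genes and named from marker genes, so that a class name stands for cells resembling that class. At least 20 cells in all 10 libraries were found for 8 classes, from 16500 excitatory neurons and 8997 astrocytes to 1649 pericytes, and cells in unnamed clusters made up 0.758% to 17.2% of a library. The headers of the count matrices name software version 3.1.0 for replicates 1 to 3 of both ranks and 4.0.0 for replicates 4 and 5, and each version came with its own gene list. Libraries of the 2 versions stood apart across the transcriptome, as described below. At most 104 barcodes were shared by a pair of libraries (1.70% of the smaller, replicate 1 of both ranks).

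Levels are given as CPM, counts scaled to a total of 1e6 UMIs in the same class and library, as the mean ± SD over 10 libraries. Among the 8 classes, astrocytes had the highest mean for 6 of the 10 members: Per3, Dbp, Cry2, Nr1d1, Nr1d2 and Arntl. Per1 was highest in endothelial cells, Per2 in excitatory neurons, Ciart in oligodendrocyte precursors and Cry1 in microglia. Cells were sorted into classes on their expression, so these orders are descriptions with no test. CPM is a share of the UMIs of a class and not a level per cell. Excitatory neurons held 55913284 UMIs in 16500 cells and astrocytes 16384860 in 8997, so orders per cell can differ. For Cry2 in rank 1 replicate 1, 971 excitatory neurons held 360 counts and 1014 astrocytes 252, opposite to the CPM order. Orders per cell are not given here. In sums over the cells of a class, fewer expressing cells and less RNA per cell cannot be told apart. The share of cells with a UMI is not given here by class.

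**Figure D1:**
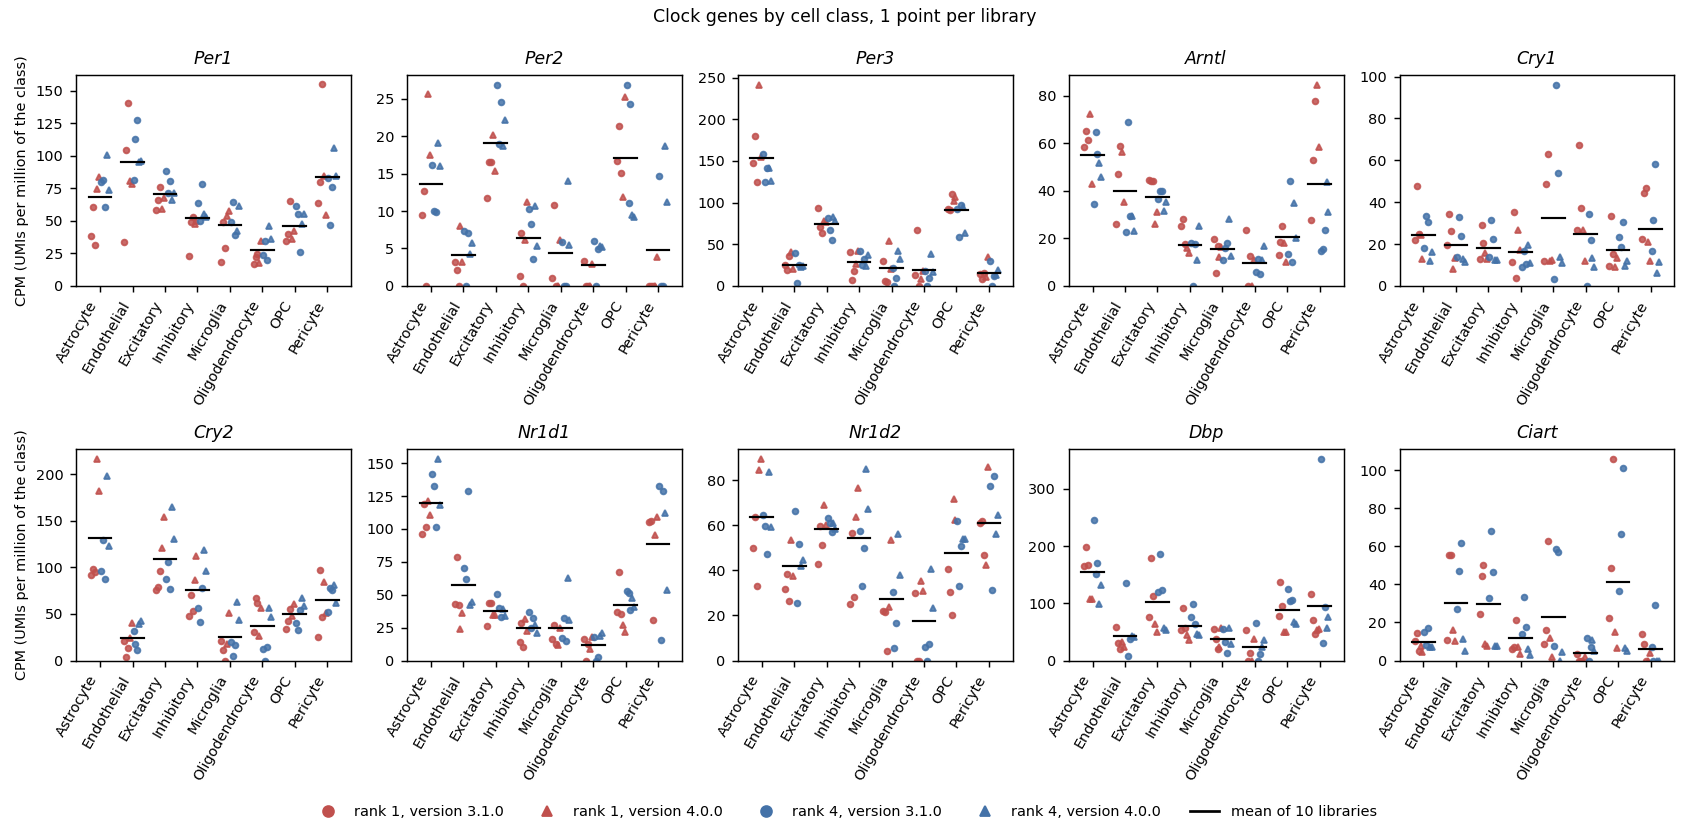
Each panel plots 1 clock gene as CPM in 8 cell classes, with 1 point per library (red for rank 1, blue for rank 4, circles for header version 3.1.0, triangles for 4.0.0) and a black line at the mean of 10 libraries. Per3 in astrocytes (124.4 to 241.6 CPM) lies above every library of every other class, and a single pericyte point of Dbp stands at 351.7 CPM.

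Arntl, the activator, averaged 55.2 ± 11.7 CPM in astrocytes, 43.0 ± 24.9 in pericytes, 39.7 ± 16.8 in endothelial cells and 37.3 ± 6.35 in excitatory neurons. It was lower in oligodendrocyte precursors (20.7 ± 11.2), inhibitory neurons (17.2 ± 8.17), microglia (15.6 ± 6.01) and oligodendrocytes (9.68 ± 7.30). The ranges of neighbours in this order overlapped throughout, but astrocytes and oligodendrocytes did not overlap, at 34.5 to 72.4 against 0 to 23.4 CPM. Arntl was higher in excitatory neurons than in oligodendrocyte precursors, the next class down, in 8 of 10 libraries.

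Among the period genes, which code for the repressors of the loop, Per3 had the steepest pattern. It reached 154 ± 35.4 CPM in astrocytes, 91.0 ± 17.0 in oligodendrocyte precursors and 74.7 ± 10.8 in excitatory neurons, then dropped to 29.2 ± 11.6 in inhibitory neurons and to between 15.7 ± 10.2 and 25.4 ± 10.9 in the other 4 classes. The astrocyte values exceeded those of oligodendrocyte precursors in 10 of 10 libraries without overlap, and the excitatory values those of inhibitory neurons likewise. Per3 shares its strand and part of its span with Camta1, so reads in the overlap may be uncertain.

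Per1 had a flatter pattern. Its mean was 95.1 ± 29.8 CPM in endothelial cells, 83.4 ± 30.4 in pericytes, 70.5 ± 9.40 in excitatory neurons and 68.4 ± 21.2 in astrocytes, and neighbours changed places between libraries. Only the lowest class was below its neighbour in every library, with 27.7 ± 9.66 CPM in oligodendrocytes against 46.3 ± 12.8 in their precursors. Per2 had few counts, 1611 in all kept cells. It averaged 19.2 ± 4.5 CPM in excitatory neurons, 17.1 ± 6.82 in oligodendrocyte precursors, 13.6 ± 6.93 in astrocytes and at most 6.38 ± 3.91 in the other 5 classes.

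The cryptochromes, partners of the period proteins in repression, differed in pattern. Cry2 averaged 131.8 ± 48.7 CPM in astrocytes, 109 ± 32.4 in excitatory neurons and 76.1 ± 27.0 in inhibitory neurons, against 24.6 ± 13.4 in endothelial cells, the lowest class. Cry1 showed no order that stood out from the spread: its means ran from 16.1 ± 9.35 CPM in inhibitory neurons to 32.7 ± 30.9 in microglia, and microglia exceeded inhibitory neurons in only 6 of 10 libraries. The highest class of Cry1 became pericytes when counts were pooled and oligodendrocytes under the stricter cell filter.

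The nuclear receptors that repress Arntl were both present in astrocytes and pericytes. Nr1d1 averaged 119.7 ± 18.5 CPM in astrocytes, 88.9 ± 40.8 in pericytes, 57.3 ± 30.1 in endothelial cells and 37.9 ± 6.91 in excitatory neurons. Astrocytes and oligodendrocytes (11.6 ± 8.19) did not overlap. Nr1d2 was nearly level over 4 classes, with 63.5 ± 18.0 CPM in astrocytes, 60.9 ± 17.6 in pericytes, 58.4 ± 7.04 in excitatory neurons and 54.3 ± 20.3 in inhibitory neurons. Astrocytes exceeded pericytes in 5 of 10 libraries, and pericytes took the first place in the pooled counts.

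Dbp, the output activator, averaged 154.3 ± 45.9 CPM in astrocytes, 102.2 ± 50.7 in excitatory neurons, 95.0 ± 93.5 in pericytes, 87.6 ± 30.5 in oligodendrocyte precursors and 61.2 ± 21.4 in inhibitory neurons. It was higher in astrocytes than in excitatory neurons in 9 of 10 libraries and higher in precursors than in inhibitory neurons in 10 of 10. Ciart, the further repressor, was unlike the others in that astrocytes were near the bottom. It averaged 41.4 ± 38.4 CPM in oligodendrocyte precursors, 30.1 ± 22.5 in endothelial cells, 29.8 ± 21.9 in excitatory neurons, 23.0 ± 25.7 in microglia, 11.9 ± 9.71 in inhibitory neurons and 9.65 ± 4.42 in astrocytes. The spread was wide beside the means, from an SD of 4.42 for a mean of 9.65 CPM in astrocytes to one above the mean in microglia, and the header versions are compared below.

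Marker transcripts were also counted outside their own class. The summed level of 6 excitatory markers was 11% to 22.0% of its excitatory value in the other 7 classes, and that of 7 astrocyte markers 2.50% to 6.68% of its astrocyte value. Oligodendrocytes, the lowest class for 7 of the 10 members, held 16.8% of the excitatory marker level, beside a Per2 level of 2.78 ± 2.55 CPM there and 19.2 ± 4.5 in excitatory neurons. Its part in the low levels was not tested.

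Astrocytes fell into 4 clusters, which are described over the libraries with at least 20 cells of each. A cluster of 794 cells led by Sfrp1, Mt2 and Gfap (777 of them in the 7 libraries used) had the lowest mean of the 4 for 8 of the 10 members, all but Dbp and Cry1. Per3 had 61.9 ± 52.8 CPM (n = 7) against 127.3 ± 24.7 (n = 8) to 164.1 ± 61.2 (n = 10) in the other 3. Per1 had 42.1 ± 28.7 CPM there against 57.1 ± 18.6 to 116.5 ± 64.2, Per2 3.08 ± 4.79 against 10.5 ± 8.29 to 23.6 ± 16.3 and Nr1d2 33.1 ± 24.1 against 53.1 ± 26.6 to 79.4 ± 35.9. Dbp was not lowest there, at 160.5 ± 49.7 CPM against 110 ± 42.1 (n = 9) to 170.2 ± 68.4. Nr1d1 was nearly even over the 4 clusters, with means between 90.0 ± 38.2 and 114.5 ± 34.9 CPM. The ranges of this cluster and the others overlapped for each of these genes.

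Excitatory neurons were divided further into 4 subclasses, named for the cortical layer and the target of the axon. L2/3 IT cells project within the telencephalon, L5 PT cells along the pyramidal tract, L6 CT cells to the thalamus and L5/6 NP cells to nearby targets, and 7286 of the 16500 cells stayed without a subclass. In the 7 libraries with enough cells of all 4, Per3 was lowest in L5 PT cells, with 26.6 ± 10.3 CPM (12.6 to 44.1) against 99.9 ± 16.1 in L2/3 IT cells (68.2 to 113.5), 71.1 ± 11.9 in L6 CT and 66.3 ± 18.7 in L5/6 NP cells. Each of the 3 exceeded L5 PT in 7 of 7 libraries, and the ranges of L2/3 IT and L5 PT did not overlap. Dbp was higher in L2/3 IT than in L6 CT and L5/6 NP cells in 7 of 7 libraries (93.8 ± 31.8 CPM against 58.5 ± 23.3 and 52.3 ± 12.9). Arntl was likewise higher in L2/3 IT cells (43.8 ± 7.47 CPM) than in L6 CT (31.0 ± 5.16) and L5/6 NP cells (24.1 ± 10.1) in 7 of 7 libraries, while L5 PT cells had a mean of 45.2 ± 19.5. Cry2 and Nr1d2 had their highest means in L5 PT cells, at 132.9 ± 55.9 and 72.7 ± 18.2 CPM. However, Cry2 exceeded L2/3 IT cells (123.6 ± 41.0 CPM) in only 4 of 7 libraries. Nr1d2 likewise exceeded L5/6 NP cells (69.8 ± 23.7 CPM) in only 4 of 7. Per1 was also highest in L5 PT cells (77.1 ± 17.9 CPM), above L6 CT cells in 5 of 7.

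One excitatory cluster of 1151 cells was led by the neuronal activity genes Egr4, Npas4 and Arc, and was used to look at the clock genes across cells of 1 class. Per1 was 145.9, 245.1, 200, 104.7 and 131.7 CPM there in rank 1 replicates 1 to 5 and 148.1, 153.5, 271.3, 130.8 and 151.5 CPM in rank 4. In the other excitatory neurons of the same libraries it was 48.2, 52.9, 60.6, 51.0 and 61.0 CPM in rank 1 and 80.1, 61.2, 60.5, 59.2 and 63.8 in rank 4. Per1 was thus higher in the activity cluster in 10 of 10 libraries with no overlap, and the ratio of the means was 2.81. Cry2 was also higher in 10 of 10 libraries, by a ratio of 1.35 (142.1 ± 42.5 against 104.9 ± 31.8 CPM), and Ciart in 9 of 10, by 1.90 (51.9 ± 37.4 against 27.3 ± 21.5). The other members lay between ratios of 0.81 for Per3 and 1.18 for Per2. Per2, known like Per1 as an inducible period gene, was higher in 6 of 10 libraries, on only 132 counts in the cluster. These are descriptions of a cluster found from other genes of the same cells.

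**Figure D2:**
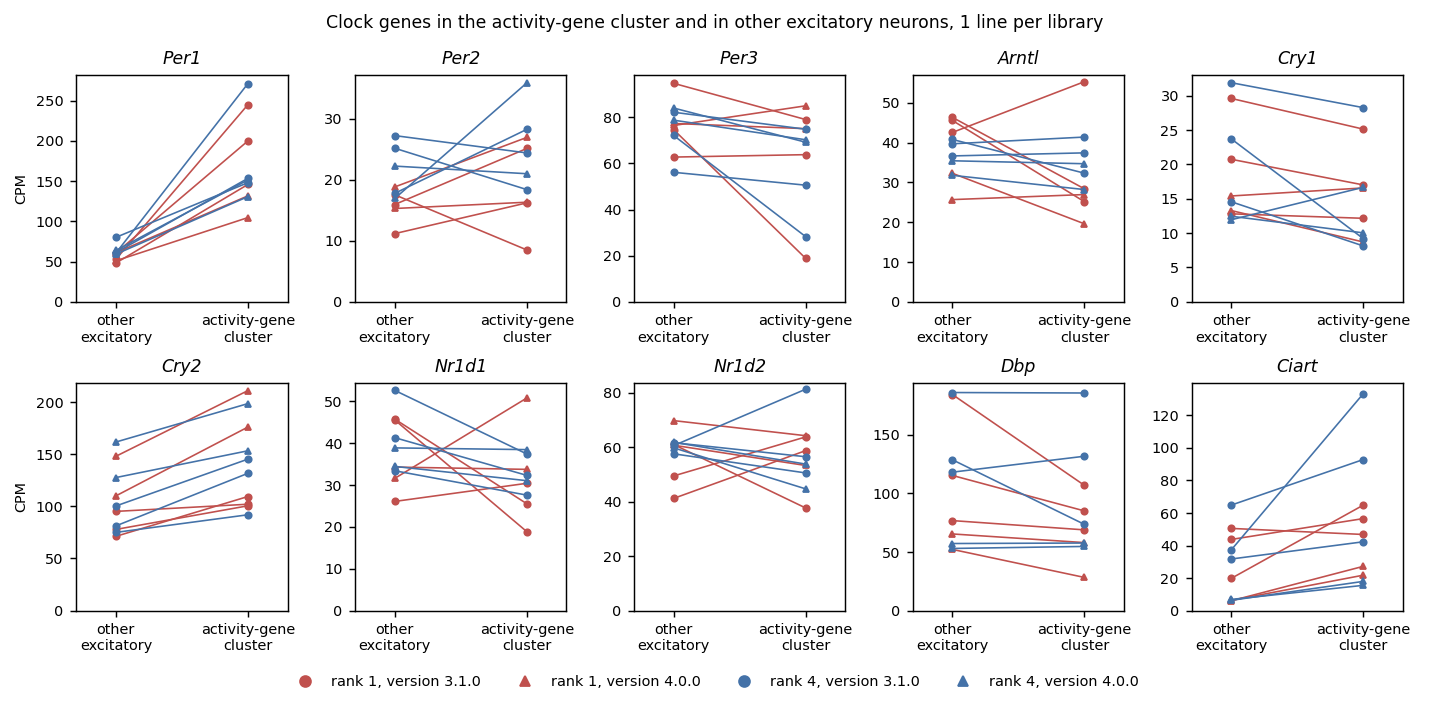
Each panel plots 1 clock gene as CPM in the other excitatory neurons (left) and in the cluster led by Egr4, Npas4 and Arc (right), with 1 line per library (red for rank 1, blue for rank 4, circles for version 3.1.0, triangles for 4.0.0). Every Per1 line climbs, from a mean of 59.9 to 168.3 CPM, whereas those of Arntl and Nr1d2 cross.

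The ranks were compared on counts summed per library and class, with edgeR's quasi-likelihood test over all genes and the header version as a covariate. Of the 10 members in 9 tested classes, 61 combinations passed the filter on low counts. None was called between the ranks, 0 of 61 at an adjusted p under 0.05, beside 0 of 69656 tests over all genes (0%). At an unadjusted p under 0.05 there were 3 of 61 member tests (4.92%) and 1670 tests over all genes (2.40%), and DESeq2 also called 0 members. The estimates were below 0, that is lower in rank 1, in all but 17 of the 61 combinations. The median log2 fold change of the members was -0.14 beside -5.6e-04 over all genes. This lean rested largely on some libraries: the median was -0.26 within replicates 1 to 3 (10 of 48 above 0), -0.06 within replicates 4 and 5 (27 of 61) and -0.05 without rank 1 replicate 1 (22 of 55). The classes share their libraries, so these 61 estimates are not independent.

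**Figure D3:**
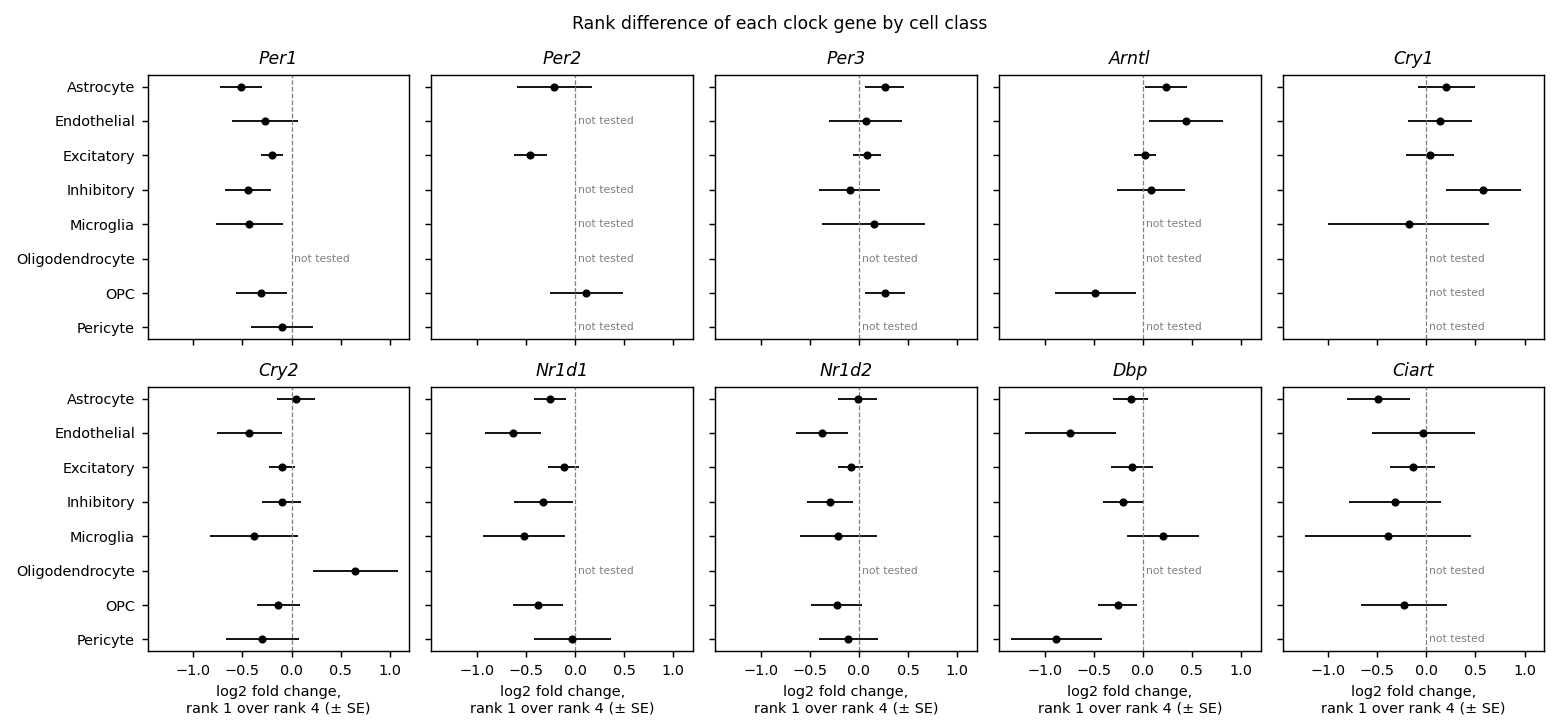
Each panel plots 1 clock gene with its log2 fold change of rank 1 over rank 4 (point) and standard error (bar) in 8 cell classes, from edgeR with the header version as covariate. Points of Per1, Nr1d1, Nr1d2 and Ciart lie left of 0 in all tested classes, and none of the 61 passed after adjustment.

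Estimates were below 0 in every class tested for 4 members: Per1, Nr1d1 and Nr1d2 in 7 of 7 and Ciart in 6 of 6. Dbp was below 0 in 6 of 7 and Cry2 in 6 of 8, while Per3 was above 0 in 5 of 6, and Arntl and Cry1 in 4 of 5. Each member is described next in the class where its unadjusted p was smallest. The ranges of the ranks overlapped in all 10 of these, and the adjusted p was 1.00 for each by edgeR's quasi-likelihood test with Benjamini-Hochberg adjustment.

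Per2 in excitatory neurons had the smallest unadjusted p. Its values were 11.7, 16.6, 16.6, 20.1 and 15.4 CPM in rank 1 and 26.9, 19.0, 24.5, 18.7 and 22.1 CPM in rank 4, replicates 1 to 5. Rank 1 was lower in 4 of 5 pairs, and only replicate 4 of rank 1 reached into the range of rank 4. The log2 fold change was -0.46 (SE 0.17, edgeR unadjusted p = 0.0210), with -0.70 within replicates 1 to 3 and -0.20 within replicates 4 and 5.

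Per1 in astrocytes was 38.0, 60.5, 31.6, 74.6 and 83.6 CPM in rank 1 and 79.7, 81.3, 60.6, 100.6 and 74.0 CPM in rank 4. Rank 1 was lower in 4 of 5 pairs, and replicate 5 went the other way. The log2 fold change was -0.52 (SE 0.21, edgeR unadjusted p = 0.03001), with -0.80 within replicates 1 to 3 and -0.11 within replicates 4 and 5.

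Nr1d1 in endothelial cells was 42.7, 79.1, 42.6, 24.1 and 36.5 CPM in rank 1 and 70.5, 61.8, 129, 42.0 and 44.7 CPM in rank 4. In 4 of 5 pairs rank 1 was lower, and replicate 2 was higher. The log2 fold change was -0.63 (SE 0.28, edgeR unadjusted p = 0.0447), with -0.77 within replicates 1 to 3 and -0.37 within replicates 4 and 5. Nr1d2, its relative, was also taken in endothelial cells, with 37.5 ± 10.3 CPM in rank 1 and 46.1 ± 14.96 in rank 4 (n = 5 each). Its log2 fold change of -0.37 (SE 0.26) became -0.71 among replicates 1 to 3 alone and 0.06 among replicates 4 and 5 alone.

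Dbp in pericytes was 116.4, 70.7, 46.7, 52.9 and 54.6 CPM in rank 1 and 351.7, 31.3, 93.4, 56.1 and 75.9 CPM in rank 4. Replicate 1 of rank 4 was far above the rest, and without it the log2 fold change of -0.88 (SE 0.46) became 0.00. The same library was also the highest of 10 for Dbp in endothelial cells, with 136.3 CPM (205 counts) against 7.26 to 58.5 in the other 9, and in astrocytes, with 246.2 CPM against 98.5 to 198.9. Its 20 fibroblasts held 44 Dbp counts (574.5 CPM), while the 26 fibroblasts of rank 4 replicate 5, the only other library with at least 20, held 0. In excitatory neurons it was in the middle, at 119.9 CPM within 50.1 to 186.1. In this library 9.62% of barcodes were called doublets, the highest share of the 10, and 4473 of 10103 barcodes were kept. Of the kept cells 10.3% were in unnamed clusters, and the smallest barcode of the library held 1037 UMIs. The part of these traits in the result was not tested.

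The remaining members gave smaller or less even differences. Ciart in astrocytes was 8.34 ± 4.09 CPM in rank 1 and 10.96 ± 4.80 in rank 4, with a log2 fold change of -0.49 (SE 0.32). Arntl in oligodendrocyte precursors was 16.9 ± 5.77 and 24.6 ± 14.6 CPM, with -0.48 (SE 0.41). The others leaned the other way: Per3 in astrocytes was 169.6 ± 44.8 and 138.3 ± 13.9 CPM (0.26, SE 0.20), Cry1 in inhibitory neurons 18.9 ± 12.5 and 13.3 ± 4.51 CPM (0.58, SE 0.38) and Cry2 in oligodendrocytes 48.6 ± 18.9 and 26.0 ± 24.4 CPM (0.65, SE 0.43). All SDs are over 5 libraries, and every one of these differences was within the spread of the libraries.

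Same-numbered libraries of the ranks, which no label pairs, were also compared for all 10 members in 8 classes. In some classes outside those described, all 5 pairs leaned 1 way although the ranges overlapped and no test passed. With 5 pairs, some of so many combinations would do so by chance. How often other genes do so was not counted, so the cases are listed as descriptions and no difference is read from them. Per1 was below its rank 4 partner in 5 of 5 pairs of excitatory neurons (65.4 ± 7.18 against 75.7 ± 8.96 CPM) and of inhibitory neurons (44.6 ± 12.4 against 60.0 ± 11.4). Nr1d1 was below in 5 of 5 pairs of astrocytes (109.9 ± 10.9 against 129.6 ± 20.2 CPM) and of microglia, as was Dbp in inhibitory neurons (56.3 ± 21.3 against 66.1 ± 22.7). Per3 was above in 5 of 5 pairs of oligodendrocyte precursors (100.5 ± 8.42 against 81.4 ± 18.7 CPM). Arntl in pericytes and Cry1 in oligodendrocytes were also above in 5 of 5 pairs but had too few counts to be tested, with 1 to 15 Arntl counts a library.

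With the replicate number as a block in place of the version, 0 of 64 member tests passed, beside 262 of 73944 over all genes (0.354%). Of the 64, 9 had an unadjusted p under 0.05 (14.1%), beside 7290 tests over all genes (9.86%). The nearest to the threshold was Per1 in astrocytes, at -0.51 on the log2 scale (SE 0.15, edgeR adjusted p 0.0760), followed by Dbp in pericytes (-1.03, SE 0.27, adjusted p 0.130) and Nr1d1 in endothelial cells (-0.63, SE 0.20, adjusted p 0.158).

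The wider clock pathway was followed through 17 further genes, among them partners of Arntl, kinases and ubiquitin ligases. None passed between the ranks with the version covariate, 0 of 96 tests. With the replicate block 2 of 99 passed, among them Usp2, a deubiquitinase known to act on clock proteins, in astrocytes.

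Usp2 was 103.1, 70, 64.8, 129.2 and 158.1 CPM in rank 1 astrocytes and 156.9, 175.8, 116.5, 226 and 158.5 CPM in rank 4. It was lower in rank 1 in all 5 pairs, by 158.1 against 158.5 CPM in replicate 5. The log2 fold change was -0.71 (SE 0.20, edgeR adjusted p 1.00) with the version covariate and -0.66 with the block (SE 0.14, adjusted p 0.00661). Npas2, which can stand in for CLOCK as the partner of Arntl, had a log2 fold change of -0.81 in astrocytes (SE 0.31, edgeR unadjusted p = 0.0200, adjusted p 1.00). Usp2 overlaps genes on the other strand, and the strand setting of the authors' counting is not given in the sources used here.

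The header versions were compared in the same fit. Across all genes and classes 27264 of 69656 tests were called (39.1%; 19% higher and 20.1% lower in version 4.0.0). Of the member tests 19 of 61 were called, 4 higher and 15 lower in version 4.0.0, a share below that of all genes. Leaving out rank 1 replicate 5 gave 12 calls, and leaving out rank 4 replicate 4 gave 11. The version stands for whatever differed between replicates 1 to 3 and replicates 4 and 5, and processing, time of collection and animals cannot be told apart in it.

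**Figure D4:**
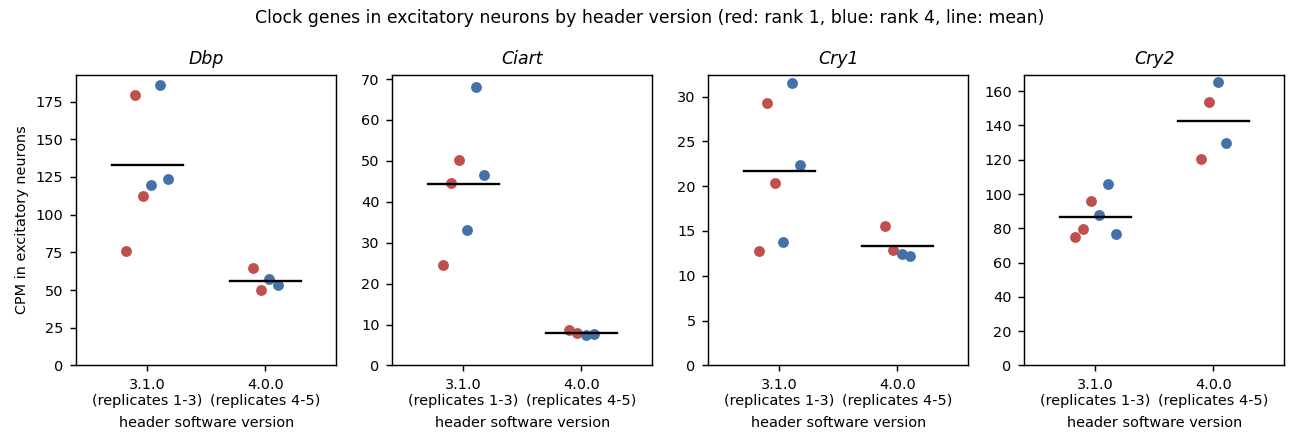
Each panel plots 1 clock gene as CPM in excitatory neurons of 6 libraries with header version 3.1.0 and 4 with 4.0.0 (red for rank 1, blue for rank 4), with a black line at the mean. Dbp, Ciart and Cry2 do not overlap between the versions, and Cry1 does.

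Ciart was lower in version 4.0.0 in all 6 classes where it was tested, by log2 fold changes of -1.14 in astrocytes to -3.34 in microglia. In excitatory neurons it was 24.4, 44.6 and 50.1 CPM in rank 1 and 33.1, 68.1 and 46.4 CPM in rank 4 of version 3.1.0, against 8.68, 7.89, 7.39 and 7.62 CPM in the 4 libraries of version 4.0.0. The groups did not overlap, and the log2 fold change was -2.49 (SE 0.25, edgeR adjusted p 2.2e-05). In oligodendrocyte precursors the means were 63.5 ± 34.3 and 8.26 ± 4.48 CPM, also without overlap (-3.0, SE 0.52, adjusted p 4.3e-04). Both of these calls held in each of the 10 fits without 1 library. The astrocyte call was lost without rank 1 replicate 5 or rank 4 replicate 4, and the endothelial call without replicate 5 of either rank. Without rank 4 replicate 5 the inhibitory call was lost. The microglial call was lost without any of these 3 libraries, and only 4 of the 7 fits that tested it kept it. Ciart overlaps C920021L13Rik on the other strand, and both gene lists hold that gene.

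Dbp was lower in version 4.0.0 in 4 of 7 tested classes. In excitatory neurons it was 76.0, 179.3 and 112.1 CPM in rank 1 and 119.9, 186.1 and 123.5 CPM in rank 4 of version 3.1.0, against 64.3, 50.1, 57.3 and 53.2 CPM in version 4.0.0. The log2 fold change was -1.25 (SE 0.23, edgeR adjusted p 8.5e-04). It was -0.93 in astrocytes, -0.94 in oligodendrocyte precursors and -0.81 in inhibitory neurons, each without overlap of the versions, while pericytes, endothelial cells and microglia did not pass. All 4 calls held in each of the 10 fits without 1 library. The gene overlaps Sphk2, which is on the other strand and in both lists.

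Cry1 was lower in version 4.0.0 in astrocytes (-1.02, SE 0.30), endothelial cells (-1.13, SE 0.34) and excitatory neurons (-0.70, SE 0.25, edgeR adjusted p 0.0357). The excitatory call was lost in 7 of the 10 fits without 1 library (without replicates 2, 3 or 5 of rank 1, or 2, 3, 4 or 5 of rank 4), with adjusted p of 0.0537 to 0.102. The endothelial call was lost in 8 of the 10, all but those without replicate 1 of either rank, and the astrocyte call without rank 1 replicate 5 or rank 4 replicate 4. Cry2 went the other way. It was higher in version 4.0.0 in excitatory neurons (142.3 ± 20.7 against 86.8 ± 12.1 CPM, log2 fold change 0.69, SE 0.13, edgeR adjusted p 0.00118), inhibitory neurons (0.74, SE 0.20) and astrocytes (0.64, SE 0.19), the last of which was lost without rank 4 replicate 4 (edgeR adjusted p 0.0573). D930015M05Rik overlaps Cry2 on the other strand and is only in the list of version 4.0.0, whose part in the change was not tested.

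The other version calls were single classes: Arntl was lower in excitatory neurons (31.0 ± 3.89 against 41.5 ± 3.17 CPM, -0.45, SE 0.12, edgeR adjusted p 0.00700, and 0.0536 with no filter on low counts), Nr1d1 lower in endothelial cells (-1.10, SE 0.30) and Nr1d2 higher in inhibitory neurons (0.70, SE 0.23). The Nr1d1 call was lost without replicates 4 or 5 of rank 4, and the Nr1d2 call without replicates 1, 3 or 5 of rank 1 or 4 of rank 4. No period gene was called in any of its tested classes. Of the 17 pathway genes 29 of 96 tests were called, 18 higher and 11 lower in version 4.0.0. This share was also below that of all genes (39.1%). Bhlhe40 and Bhlhe41, E-box repressors, made up all 11 of the lower ones, and Hlf, a relative of Dbp, was higher in 7 classes. These 3 were picked after their values were seen.

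How far Dbp moved with the other members was read over the 10 libraries, as the mean over 8 classes of log2(CPM + 1). None of the 9 relations passed after adjustment (permutation tests, two-sided). Nr1d1 came nearest, with Pearson's r = 0.65 (permutation p = 0.0409, adjusted 0.368) and Spearman's rho = 0.62 (permutation p = 0.0616, adjusted 0.464). Without the 2 libraries farthest from the median of Dbp, replicate 1 of rank 4 and replicate 4 of rank 1, r was 0.44. Within the 6 libraries of replicates 1 to 3 it was 0.91 (exact permutation p = 0.0181, adjusted 0.0813), and the 4 libraries of replicates 4 and 5 are too few. Nr1d1 was not alone there. Of these 6, rank 4 replicate 1 had the highest Dbp (6.94) and Per3 (5.58) and the lowest Cry1 (3.28). Rank 4 replicate 2 had the lowest Dbp (5.16) and Per3 (3.23). The mean gives sparse classes equal weight. That library had the highest Dbp of 10 in excitatory neurons (186.1 CPM) but 0 counts in its 47 oligodendrocytes. Ciart, which shared its version difference with Dbp, had r = 0.28 over all libraries and -0.05 within replicates 1 to 3. In excitatory neurons and astrocytes alone, Dbp falls into separate groups by version. Pooled r there are listed further below as values only, and no relation is read from them.

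Over the 20 library values of excitatory neurons and astrocytes, centred within each class, the 5 genes most like Dbp among 10872 were Sac3d1 (Pearson's r 0.93), Marcksl1 (0.92), Polr2g (0.91), A430005L14Rik (0.91) and Akr1a1 (0.905). Ciart was at position 32 with 0.88, and Cry2 near the end with -0.73. These points share libraries and separate by version. When the values were also centred within version, Hlf came first (0.80), and the next included Cpne6 (0.79), Map4 (0.76) and Rrm2b (0.75), and Ciart was at position 169 with 0.60. The genes most like Arntl included Nupl2 (0.88), Ccnl2 (0.85), Pias4 (0.83) and Zfp410 (0.813). Nupl2, Ccnl2 and Pias4 stayed among the first 5 within versions, beside Mum1 and Ctsc, and Arntl and Dbp themselves had r = 0.26 over all points and -0.40 within versions.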

How the data were processed

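The authors deposited raw UMI counts per gene and barcode for 10 libraries, made with Cell Ranger 4.0.0 on mm10 per the submitters' processing notes. Per the file headers, software 3.1.0 wrote the matrices of replicates 1 to 3 (31053 genes) and 4.0.0 those of replicates 4 and 5 (32285). The strand setting is not given in the sources used here. The 30406 shared genes held 99.397% to 99.923% of UMIs.

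Doublets were called with Scrublet in scanpy 1.11.5 (4004 barcodes, and in 1 library, where the automatic threshold called 0, the median threshold of 0.221 was used). Cells with at least 500 genes and at most 15% mitochondrial UMIs were kept, with 1331.5 to 2677 median UMIs per library. Clustering (2000 variable genes, members and pathway genes left out, 30 components, resolution 1) gave 29 clusters, of which 5 stayed unnamed.

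Counts were summed per library and class (at least 20 cells) and tested with edgeR 4.0.16 in R 4.3.3, by quasi-likelihood with filterByExpr, TMM and Benjamini-Hochberg adjustment in each class at 0.05, with rank and version as terms. The steps were tested on simulated data. Alternatives were DESeq2 1.42.0 and its size factors, no filter, at least 50 cells, a stricter cell filter (800 genes, 10%), rank alone, the replicate block, each version alone and leaving out each library. Same-numbered libraries, which share a header version, deviated together from the rank means (correlations of 0.65 to 0.87 in excitatory neurons and astrocytes). From the rank and version means the correlations were 0.16 to 0.80. The best match there had another number for replicate 3 of excitatory neurons (0.26 with its own number, 0.42 with replicate 2) and replicate 2 of astrocytes. Each rank has only replicates 4 and 5 in version 4.0.0, so their deviations from that mean are equal and opposite. Their correlations are thus forced to be the same (0.16 in excitatory neurons, 0.19 in astrocytes). Their best matches, which had other numbers, cannot judge the pairing of 4 and 5. The block was treated as a pairing with this limit. This pairing comes from the data, as the labels name no shared batch. The p-values measure the spread between pools of mice.

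Members are given in all classes and, for rank, in the class of their smallest unadjusted p. Of 17 further pathway genes, the 3 with the smallest p were to be named, and for Dbp and Arntl the 5 most correlated genes; some of these are not reported here. Members and lists were chosen with earlier results of these data known. Promoters are from RefSeq (GRCm38.p6), and overlapping genes from GENCODE M21 on GRCm38.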

Additional observations from a re-analysis of the deposited data

Results flagged for a closer look

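Dbp in the pericytes of rank 4 replicate 1, at 351.7 CPM (191 counts), stood far from the other 4 rank 4 libraries, of which the nearest was at 93.4 CPM. The gap made up 0.806 of the range of the group, above the critical value of 0.71 for 5 samples. It was the only such value in 36 groups examined, where chance gives about 1.8.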

How the results depend on the processing

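No member was called between the ranks under any of the 19 alternatives run, the replicate block included (0 of 64). The block changed no member's call, and it moved the calls of the pathway list from 0 to 2. Leaving out 1 library gave 11 to 24 version calls instead of 19, with 12 without rank 1 replicate 5 and 11 without rank 4 replicate 4, and the other alternatives gave 19 to 25. For 1 rank and 1 version value per member (its named class, and excitatory neurons), the log2 fold changes kept their direction and side of the threshold in 307 comparisons with an alternative, 8 lost the threshold and 9 turned sign. Version calls in the other classes were lost more widely without 1 library, as given with each member (8 of 10 fits for Cry1 in endothelial cells and 4 of 10 for Nr1d2 in inhibitory neurons). The version difference of Per2 in excitatory neurons was 0.051 without a filter and -0.14 to 0.093 without 1 library, and that of Per3 was -0.025 under the stricter cell filter. Between the ranks, Nr1d2 in endothelial cells was 0.061 within replicates 4 and 5, and Dbp in pericytes ran from -1.07 to 0.0044 without 1 library, the latter without rank 4 replicate 1. The cause of these turns was not tested. Correlations with Dbp over libraries moved most. In excitatory neurons alone 2 relations passed, Ciart and Cry1, and in astrocytes alone 1, Cry2, where the versions of Dbp do not overlap, so these r span separated libraries and are listed as values only. In excitatory neurons r was 0.40 for Per1, -0.54 for Per3, 0.65 for Arntl, 0.89 for Cry1 and -0.017 for Nr1d2. In astrocytes it was -0.30 for Per2, -0.14 for Per3, 0.54 for Cry1, -0.14 for Nr1d1 and -0.55 for Nr1d2. Within replicates 1 to 3 it was 0.67 for Cry2 and -0.047 for Ciart, and without the 2 farthest libraries 0.39 for Arntl, 0.26 for Cry2 and -0.064 for Ciart. With the replicate block, as differences within the 5 pairs, it was 0.53 for Per1, 0.89 for Cry2 and -0.028 for Ciart. Without 1 library it ran from -0.47 to 0.43 for Per1, -0.25 to 0.47 for Arntl, -0.31 to 0.084 for Cry2 and -0.013 to 0.39 for Nr1d2. The highest class held in 8 to 10 of the 10 members. It moved to pericytes for Nr1d2 (pooled counts, or without rank 1 replicate 4 or rank 4 replicate 2 or 4) and for Cry1 (pooled counts, or without rank 4 replicate 2), and under the stricter cell filter to oligodendrocyte precursors for Per2 and oligodendrocytes for Cry1. The stricter filter and the fits within one version left some members untested, such as Arntl in oligodendrocyte precursors. Pairs as differences, likeness within versions and the rule on clusters under 50 cells were chosen after seeing the data. Low depth limits Per2, Cry1 and Ciart most, with 1611 to 1850 counts in all kept cells.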
